A study of Mus musculus with 14 samples.

Results

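The auxiliary subunits of voltage-gated calcium channels were followed in RNA of hippocampal parvalbumin-expressing interneurons (PV neurons) after chronic social defeat stress (CSDS). The members were chosen by name as the genes of both auxiliary families, the beta subunits Cacnb1, Cacnb2, Cacnb3 and Cacnb4 and the alpha2-delta subunits Cacna2d1, Cacna2d2, Cacna2d3 and Cacna2d4. They make 8 of the 39017 genes in the count table, and all 8 were among the 21298 genes that passed the filter on low counts. RNA was obtained by translating ribosome affinity purification (TRAP), in which ribosomes carrying EGFP-tagged L10a are pulled out of a homogenate together with their mRNA. The tag was Cre-dependent and was switched on by crossing EGFP-L10a mice with PV-Cre mice, so it marks every cell of the dissected hippocampus in which PV-Cre was active, and both hippocampi of 1 mouse gave 1 sample. All mice, the controls included, carried both transgenes and were young adult males of C57BL/6 background. TRAP libraries came from 4 non-defeated mice, housed in pairs across a divider and never in contact with CD-1 mice, and from mice attacked daily by CD-1 aggressors, of which 4 were resilient (social interaction ratio at or above 1) and 3 susceptible (ratio below 1). Total RNA of 3 non-defeated homogenates, taken before TRAP, served as input. Libraries are called here by group and by the number in the sample name: non-defeated 1, 6, 9 and 11, resilient 3, 5, 7 and 8, susceptible 2, 4 and 10, and input 12, 13 and 14.

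A high-voltage-activated calcium channel is built around a pore subunit, which conducts the calcium and carries the voltage sensor. Beta subunits are cytoplasmic proteins that bind the loop between the first and the second domain of the pore subunit, help to bring the channel to the cell surface and set how readily it opens and inactivates. Alpha2-delta subunits are largely extracellular, anchored in the membrane, and raise the number of channels at the surface and at presynaptic sites. Some members of this family, though not all, bind gabapentin and pregabalin. In fast-spiking PV neurons, calcium entry at the terminal mainly through P/Q-type channels triggers GABA release.

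The 14 libraries held between 64110214 and 94726962 counted reads, with normalization factors between 0.945 and 1.12. Levels are given as CPM, counts scaled to the size of the library after TMM normalization. No library was a copy of another of its own group: even in the closest such pair, chi-square was 13.4 times its degrees of freedom. Pairs from different groups were not compared in this way. Against input, 9 of 9 markers of PV interneurons were higher in non-defeated TRAP libraries (median log2 fold change 2.86). Of the markers of other cells, 6 of 6 of excitatory neurons, 6 of 6 of oligodendrocytes, 5 of 6 of astrocytes, 5 of 5 of microglia, 4 of 5 of red blood cells and 1 of 3 of choroid plexus were lower than in input. Endothelial markers were not lower, with 1 of 4 higher (Cldn5, log2 fold change 1.22), and neither were thalamic neuron markers, with 1 of 8 higher (Ramp3, 2.92). Within every group the summed level of 8 thalamic neuron markers varied widely, from 83.3 to 386 CPM in input, 58.0 to 421 in non-defeated, 51.4 to 724 in resilient and 64.7 to 168 in susceptible libraries, and none of these markers was at 0 in any library. Its highest levels were in input 14, non-defeated 9 and 11 and resilient 7.

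Between TRAP of non-defeated mice and input, the auxiliary subunits divided in each family into a single gene that was higher in TRAP and others that were lower. Cacnb4 rose 1.76-fold and Cacna2d2 3.0-fold, while Cacnb1, Cacnb2, Cacnb3, Cacna2d1 and Cacna2d3 fell between 2.21-fold and 2.84-fold. Cacna2d4, the least abundant member, did not pass the test. Of the 8 members, 2 were thus called higher and 5 lower at an adjusted p under 0.05 (edgeR quasi-likelihood test), where 27.4% of all genes tested were called higher and 27.6% lower. In 7 of 8 members the ranges of both groups did not overlap, which was also true of 62.0% of all genes. The median log2 fold change was -1.20 over the members, -1.28 over the beta subunits and -1.09 over the alpha2-delta subunits, beside -0.04 over all genes tested. In such bulk samples, fewer cells that use a gene and less of its RNA per cell cannot be told apart. TRAP RNA is bound to ribosomes while input is total RNA, so cell type and ribosome binding cannot be told apart either.

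**Figure D1:**
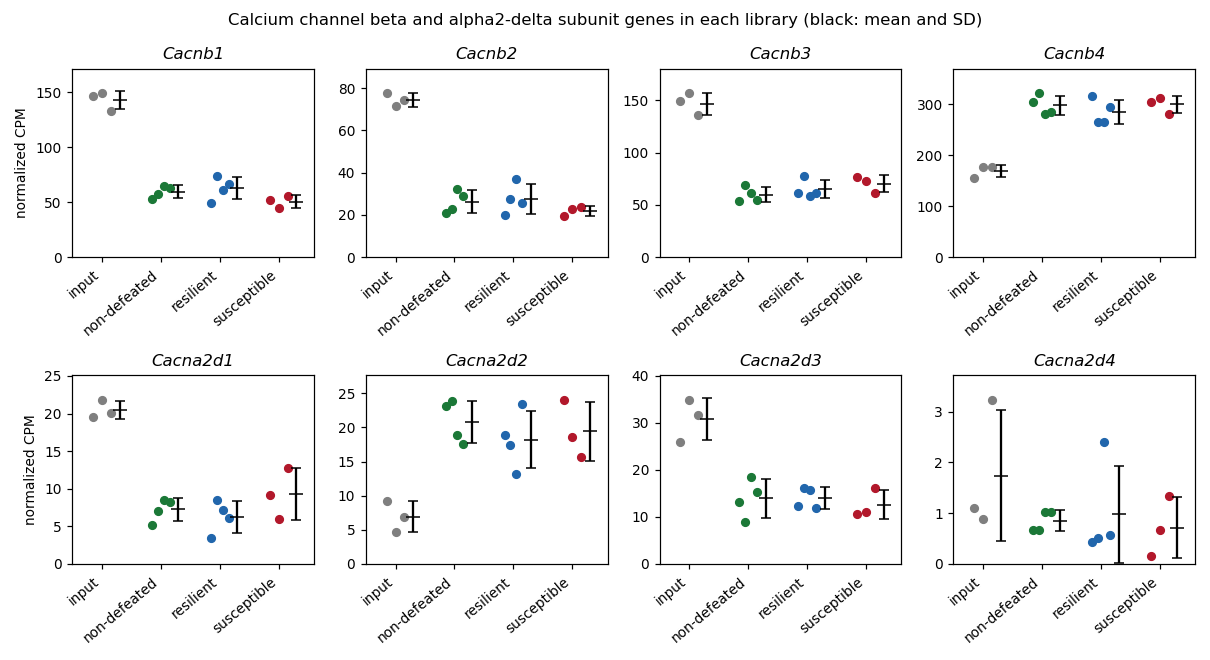
Normalized CPM (vertical axis, starting at 0) of each of the 8 genes in each of the 14 libraries, by group, with group mean and SD in black. All 11 TRAP libraries lie above every input library for Cacnb4 and Cacna2d2 and below every input library for Cacnb1, Cacnb2, Cacnb3, Cacna2d1 and Cacna2d3, while resilient, susceptible and non-defeated libraries overlap for each gene.

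Cacnb4, the beta subunit lost in the ataxic and epileptic lethargic mouse, lies on the minus strand at chr2:52428320-52676831 of mm10. It was at 156, 176 and 176 CPM in input 12, 13 and 14, and at 304, 322, 282 and 284 in non-defeated 1, 6, 9 and 11. Every non-defeated library was above every input library, with means of 298 ± 18.8 (SD, n = 4) and 169 ± 11.6 (SD, n = 3). The log2 fold change was 0.82 (SE 0.09, 95% interval 0.63 to 1.0, adjusted p = 2.01e-06). Resilient and susceptible libraries, which the test did not compare with input, lay between 266 and 316 CPM, so all 11 TRAP libraries were above the highest input library. Over those 11 libraries the highest value was 1.21 times the lowest, the smallest such ratio of the 8 genes. An annotated noncoding gene on the opposite strand, A430018G15Rik, shares 1433 bases of exon with Cacnb4, 16% of the exon length of Cacnb4. Its own values were 36.6 to 42.0 CPM in input and 62.7 to 81.5 in TRAP (log2 fold change 0.84, adjusted p = 4.82e-06). Since the kit does not mark strand, reads of the shared part cannot be assigned to either gene.

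Cacna2d2, the alpha2-delta subunit mutated in the ataxic ducky mouse, lies on the plus strand at chr9:107399612-107529343. It was at 9.28, 4.74 and 6.80 CPM in input 12, 13 and 14. In non-defeated 1, 6, 9 and 11 it was at 23.1, 23.8, 18.9 and 17.5 CPM. The lowest non-defeated value was above the highest input value, and the means were 20.8 ± 3.10 (SD, n = 4) and 6.94 ± 2.27 (SD, n = 3). The log2 fold change of 1.58 (SE 0.24, 95% interval 1.07 to 2.09, adjusted p = 6.20e-05) was the largest rise among the members. All 11 TRAP libraries, at 13.2 to 24.0 CPM, were above every input library. An antisense gene, Gm17141, shares 1.03% of the exon length of Cacna2d2, and had at most 19 counts in a library.

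Promoter windows at RefSeq starts are shown for Cacnb4 and Cacna2d2 because these are the members that were higher in TRAP than in input. Each is the RefSeq (GRCm38.p6) window from 250 bases before to 50 bases after an annotated start, written along the strand of the gene. For Cacnb4, which has 3 such windows, the most upstream one is shown, chr2:52676094-52676393 on the minus strand, and for Cacna2d2 chr9:107399630-107399929 on the plus strand. Both windows lie inside the gene positions given above, which begin further upstream, at 52676831 for Cacnb4 and 107399612 for Cacna2d2. Sequence upstream of those ends is not shown. Capitals mark the GC box GGGCGG, searched on both strands.
Cacnb4: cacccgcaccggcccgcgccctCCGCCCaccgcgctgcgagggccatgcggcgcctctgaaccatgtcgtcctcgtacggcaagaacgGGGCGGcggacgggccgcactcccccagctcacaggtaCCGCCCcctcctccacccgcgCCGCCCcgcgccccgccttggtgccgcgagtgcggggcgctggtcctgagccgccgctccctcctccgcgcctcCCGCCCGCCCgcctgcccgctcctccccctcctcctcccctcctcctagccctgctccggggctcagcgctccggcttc
Cacna2d2: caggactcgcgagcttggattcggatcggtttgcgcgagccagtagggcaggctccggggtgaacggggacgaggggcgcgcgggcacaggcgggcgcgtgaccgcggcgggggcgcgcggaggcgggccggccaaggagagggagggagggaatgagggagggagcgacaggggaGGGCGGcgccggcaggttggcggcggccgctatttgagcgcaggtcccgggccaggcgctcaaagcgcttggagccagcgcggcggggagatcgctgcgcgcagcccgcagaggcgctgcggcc
The Cacnb4 window held 6 GC boxes, of which 2 share letters, and the Cacna2d2 window held 1. Of 32851 windows of 300 bases, 35.7% held a GC box. Both windows were rich in G and C, at 78.3% and 75.7% against a median of 52.7%, with 40 and 43 CpG dinucleotides. On neither strand did they hold the TATA motif TATAAA, present in 13.6% of all windows. The CRE half-site TGACG (20.8% of windows) was also absent from both, as was the E-box CANNTG (72.3%). Windows were matched for 7 of the 8 members. GC boxes were not particular to the genes that rose: the first windows of Cacnb1, Cacna2d1 and Cacna2d3, which fell, held 5, 7 and 6. Those of Cacnb2 and Cacnb3, which also fell, held 1 each. Further windows held 4 in the case of Cacnb3 and 0 for Cacnb1, Cacnb2 and Cacnb4. A match is a description of letters and not of a bound site.

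Cacnb1, Cacnb2 and Cacnb3 were all lower in TRAP than in input. Cacnb1 (chr11:98001508-98023034, minus strand), best known as the beta subunit of skeletal muscle, was at 146, 149 and 133 CPM in input 12, 13 and 14 and at 52.5, 57.3, 64.9 and 63.1 in non-defeated 1, 6, 9 and 11. The non-defeated mean of 59.5 ± 5.67 was below the input mean of 143 ± 8.31, a log2 fold change of -1.26 (SE 0.12, adjusted p = 1.16e-06). Cacnb3 (chr15:98630840-98644529, plus strand), a beta subunit found in many neurons and in smooth muscle, showed nearly the same levels. It was at 149, 157 and 136 CPM in input and at 54.1, 69.0, 61.7 and 54.5 in non-defeated libraries, in the same order, with a log2 fold change of -1.30 (SE 0.12, adjusted p = 5.24e-07). Cacnb2 (chr2:14603088-14987908, plus strand), the main beta subunit of the heart, was less abundant. Its levels were 77.7, 71.4 and 74.5 CPM in input and 20.7, 23.0, 32.4 and 29.0 in non-defeated libraries. This was the largest fall among the beta subunits, -1.50 on the log2 scale (SE 0.18, adjusted p = 8.72e-06). For each of these genes all 11 TRAP libraries were below all 3 input libraries, at 44.2 to 73.8 CPM for Cacnb1, 19.3 to 37.2 for Cacnb2 and 54.1 to 77.5 for Cacnb3. Exons of antisense or noncoding genes overlap 1.77% of the exon length of Cacnb1 (Gm11629) and 4.67%, 1.81% and 0.839% of that of Cacnb2 (Gm10849, Gm13269 and Gm10848). No exon of another gene overlaps Cacnb3.

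Cacna2d1 and Cacna2d3 fell as well. Cacna2d1 (chr5:15934691-16374511, plus strand), the best studied target of gabapentin and a receptor for thrombospondins, was at 19.5, 21.8 and 20.1 CPM in input 12, 13 and 14. In non-defeated 1, 6, 9 and 11 it was at 5.23, 7.08, 8.53 and 8.18 CPM, which gave a log2 fold change of -1.50 (SE 0.28, adjusted p = 0.000382). Cacna2d3 (chr14:28904943-29721864, minus strand), which has roles in hearing and pain processing, was at 25.9, 34.8 and 31.6 CPM in input. Its levels of 13.1, 8.80, 18.5 and 15.2 CPM in non-defeated libraries were all below the lowest input value (log2 fold change -1.15, SE 0.22, adjusted p = 0.000498). In all 11 TRAP libraries Cacna2d1 stayed at 3.43 to 12.8 CPM and Cacna2d3 at 8.80 to 18.5, below each input library. The protein-coding gene Lrtm1 lies within Cacna2d3 on the other strand, with no exon in common.

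Among TRAP libraries, the lowest level of Cacna2d1 came with the lowest level of excitatory neuron markers and of several other cell markers. The summed level of 6 such markers was 1819 to 2180 CPM in input and 478 to 1015 in TRAP libraries, and none of them was at 0 in any library. Resilient 3 had both the lowest marker sum, 478, and the lowest Cacna2d1, 3.43 CPM. Susceptible 10 had the highest Cacna2d1 of the TRAP libraries, 12.8 CPM, at a marker sum of 957, and resilient 5 had the highest sum, 1015, at 8.46 CPM. Resilient 3 was also the lowest TRAP library for thalamic (51.4 CPM), oligodendrocyte (260), astrocyte (201) and choroid plexus markers (154). It was not the lowest for microglia, endothelial or red blood cell markers. Susceptible 10 was the highest for astrocyte (432), microglia (32.1), red blood cell (1239) and choroid plexus markers (677), but not for thalamic, oligodendrocyte or endothelial markers. Its sum of PV interneuron markers, 3362, was the lowest. The part of other cells in the level of Cacna2d1 was not tested.

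Cacna2d4 (chr6:119236526-119352407, plus strand), the alpha2-delta subunit of photoreceptors, had between 11 and 289 counts in a library, and its values rest on little depth. It was at 1.11, 0.878 and 3.23 CPM in input 12, 13 and 14 and at 0.669, 0.672, 1.03 and 1.02 in non-defeated 1, 6, 9 and 11. The groups overlapped, and the log2 fold change of -1.04 (SE 0.68, 95% interval -2.49 to 0.42) had an adjusted p of 0.210. Fitted with only these groups, it was -1.02 in DESeq2 (SE 0.46, adjusted p = 0.0538) and -1.04 in edgeR (SE 0.44, adjusted p = 0.0704). Neither value passed the threshold of 0.05. Without input 14 the main edgeR model gave -0.23 (adjusted p = 0.818). In each of the 4 groups Cacna2d4 was highest in the library with the highest sum of thalamic markers: 3.23 CPM in input 14, 1.03 in non-defeated 9, 2.41 in resilient 7 and 1.34 in susceptible 10. This was not particular to Cacna2d4. Cacnb2 was also highest in these libraries in the TRAP groups, at 32.4, 37.2 and 23.7 CPM, but in input it was highest in input 12. Without the 4 libraries in which thalamic markers were highest, the log2 fold change of Cacna2d4 against input was -0.58 (adjusted p = 0.513). In that setting Cacnb2 was at -1.78 and Cacna2d3 at -1.48, where all libraries gave -1.50 and -1.15. The part of thalamic tissue in these values was not tested.

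**Figure D2:**
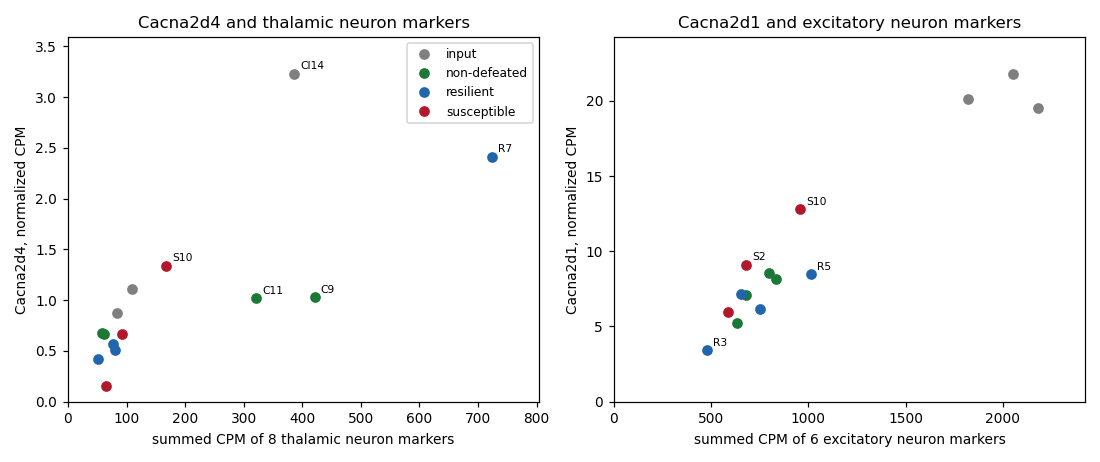
Left, normalized CPM of Cacna2d4 against the summed CPM of 8 thalamic neuron markers, and right, Cacna2d1 against 6 excitatory neuron markers, with 1 point per library coloured by group (labels give the group letter, CI for input, C for non-defeated, R for resilient and S for susceptible, with the sample number). Input 14 and resilient 7 hold the highest Cacna2d4, 3.23 and 2.41 CPM, and in the right panel the 3 input libraries stand apart with the highest values on both axes.

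To compare levels between genes, CPM were divided by exon length. In input, Cacnb3 led with 36.7 CPM per kb, followed by Cacnb1 with 31.5, Cacnb4 with 18.9, Cacnb2 with 5.63, Cacna2d3 with 3.53, Cacna2d1 with 1.65, Cacna2d2 with 0.873 and Cacna2d4 with 0.184, and no neighbours in this order had overlapping ranges. In TRAP of non-defeated mice, Cacnb4 led with 33.2 CPM per kb, clear of Cacnb3 with 14.9 and Cacnb1 with 13.1, whose ranges overlapped. Cacna2d2 with 2.62, Cacnb2 with 1.99 and Cacna2d3 with 1.59 CPM per kb came next, each overlapping its neighbour, and Cacna2d1 with 0.584 and Cacna2d4 with 0.0897 stood apart below them. The order by mean was the same in resilient and in susceptible mice, although in susceptible mice Cacnb3 no longer overlapped Cacnb1, nor Cacna2d2 Cacnb2. The middle of this order depended on the length taken for each gene. With the longest transcript in place of all exons, Cacnb2 with 5.22 CPM per kb came before Cacna2d3 with 3.76 and Cacna2d2 with 3.59 in non-defeated mice, and this order was the same in resilient and susceptible mice, with overlapping ranges. The order in input and the lead of Cacnb4 in the TRAP groups did not change. Beta subunits together were far above alpha2-delta subunits in every group, with a ratio of summed CPM per kb of 14.9 ± 1.08 (SD, n = 3) in input, 13 ± 1.12 (n = 4) in non-defeated, 14.2 ± 0.842 (n = 4) in resilient and 13.6 ± 1.73 (n = 3) in susceptible mice. With the longest transcript the ratio was 10.5, 9.62, 10.4 and 10.1 in these groups.

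Expressed as shares of each family, the beta subunits of input were mostly Cacnb3 (39.6% ± 1.10, SD, n = 3) and Cacnb1 (34.0% ± 0.807). In the TRAP groups the largest share was that of Cacnb4. The share of Cacnb4 was 20.4% ± 1.67 in input (n = 3), 52.6% ± 2.77 in non-defeated (n = 4), 49.9% ± 4.89 in resilient (n = 4) and 52.4% ± 1.44 in susceptible mice (n = 3). Among alpha2-delta subunits, Cacna2d3 made up 56.4% ± 5.54 in input and 32.4% ± 8.11 in non-defeated mice, while Cacna2d2 went from 14.2% ± 5.45 to 53.9% ± 9.55. In resilient and susceptible mice Cacna2d2 made up 50.8% ± 10.4 and 52.0% ± 11.2. The lead of Cacna2d2 also depended on gene length. With the longest transcript, Cacna2d2 and Cacna2d3 made up 42.9% and 43.8% in non-defeated, 39.8% and 47.6% in resilient and 41.6% and 41.9% in susceptible mice. Cacnb4 led its family in the TRAP groups with either length, at 44.9%, 42.3% and 44.8% with the longest transcript. TRAP libraries still held RNA of other cells, with 478 to 1015 CPM of summed excitatory neuron markers beside 1819 to 2180 in input. The part of such RNA in these shares, and in the levels per kb, was not tested.

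**Figure D3:**
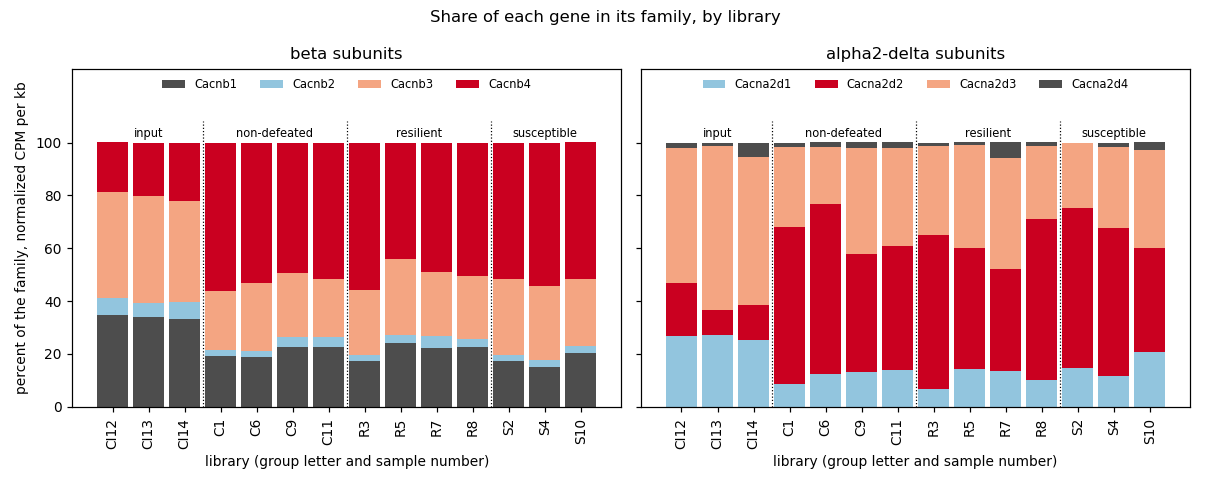
Percent of the summed normalized CPM per kb of exon taken by each gene of the beta family (left) and of the alpha2-delta family (right), with 1 bar per library (CI input, C non-defeated, R resilient, S susceptible). Cacnb4 takes 18.8% to 22.1% of the beta bars in input and 44.0% to 56.0% in TRAP libraries, and Cacna2d2 takes 9.27% to 20.1% of the alpha2-delta bars in input and 38.8% to 64.5% in TRAP libraries.

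Whether CSDS altered these genes in PV neurons was asked by comparing the TRAP groups with each other. No member was called in any of the 3 comparisons at an adjusted p under 0.05, and each member's groups overlapped in each comparison. Resilient and susceptible mice were compared with the same 4 non-defeated libraries, so these comparisons share their controls. The interval of each difference says what size of change these samples could still hold.

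In resilient against non-defeated mice, 0 of 8 members were called at an adjusted p under 0.05, as were 0% of all genes, and DESeq2 also called 0 members. None had an unadjusted p under 0.05, which 4.38% of all genes had, and none had groups without overlap, which 2.35% had. The median log2 fold change was 0.04 over the members and 0.00 over all genes. Resilient 3, 5, 7 and 8 had 316, 266, 266 and 294 CPM of Cacnb4, against 282 to 322 in non-defeated mice (log2 fold change -0.06, 95% interval -0.23 to 0.10, adjusted p = 1.0). For Cacna2d2 the resilient values were 18.9, 17.4, 13.2 and 23.4 CPM, of which 2 were below the lowest non-defeated value of 17.5 (log2 fold change -0.19, 95% interval -0.64 to 0.26, adjusted p = 1.0). Cacnb1, at 49.4, 73.8, 61.3 and 66.8 CPM, Cacnb2, at 19.9, 27.5, 37.2 and 25.8, and Cacnb3, at 61.8, 77.5, 58.4 and 61.4, had log2 fold changes of 0.08, 0.07 and 0.11. Resilient 5 was the highest TRAP library for Cacnb1 and Cacnb3, and resilient 7 for Cacnb2. Cacna2d1 was at 3.43, 8.46, 7.13 and 6.14 CPM and Cacna2d3 at 12.2, 16.2, 15.7 and 11.8, with log2 fold changes of -0.21 and 0.01. Cacna2d4 was at 0.424, 0.514, 2.41 and 0.570 CPM. Its log2 fold change of 0.21 (95% interval -1.16 to 1.58) was -0.75 without resilient 7.

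In susceptible against non-defeated mice, 0 of 8 members were called at an adjusted p under 0.05, beside 0.0376% of all genes, and DESeq2 called none of the members either. At an unadjusted p under 0.05 it was 0 members against 13.3% of all genes, and 0 members against 8.62% had groups without overlap. The median log2 fold change was -0.12 over the members and 0.01 over all genes. Cacnb3 had the smallest p of the members: susceptible 2, 4 and 10 had 76.7, 72.9 and 61.4 CPM, and 2 of them were above the highest non-defeated value of 69.0 (log2 fold change 0.23, 95% interval -0.02 to 0.49, adjusted p = 0.403). Cacnb4, at 304, 313 and 281 CPM, lay within the non-defeated range or next to it, with a log2 fold change of 0.01 (95% interval -0.17 to 0.19, adjusted p = 0.976). Cacna2d2, at 24.0, 18.6 and 15.6 CPM, spread to both sides of that range, with a log2 fold change of -0.10 (95% interval -0.59 to 0.38, adjusted p = 0.876). The remaining log2 fold changes were -0.24 for Cacnb1, -0.26 for Cacnb2, 0.36 for Cacna2d1, -0.14 for Cacna2d3 and -0.24 for Cacna2d4, with adjusted p-values between 0.420 and 0.910.

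In susceptible against resilient mice, of these 3 comparisons the one with the most genes called, again 0 of 8 members were called at an adjusted p under 0.05, beside 1.89% of all genes, and DESeq2 called 0 members. Cacnb1 was the 1 member with an unadjusted p under 0.05, beside 20.9% of all genes, and 0 members had groups without overlap, beside 15.1%. Cacnb1 was at 51.6, 44.2 and 55.4 CPM in susceptible 2, 4 and 10, and at 49.4, 73.8, 61.3 and 66.8 in resilient 3, 5, 7 and 8. All susceptible values were below 3 of the 4 resilient ones, and resilient 3 lay among them. The means of 50.4 ± 5.71 and 62.8 ± 10.3 gave a log2 fold change of -0.32 (SE 0.13, 95% interval -0.59 to -0.05), with an unadjusted p of 0.0244 in edgeR, an adjusted p of 0.172 and an exact permutation p of 0.143 (2-sided), where 0.0286 is the smallest possible. Among samples numbered 1 to 6, with 2 libraries of each group, the log2 difference was -0.34. Among those numbered 7 to 11 it was -0.21, with susceptible 10 as the only susceptible library, so this value has no spread of its own. Red blood cell markers, which differed between the same groups for 4 of 5 genes, summed to 890 to 1239 CPM in susceptible and 129 to 599 in resilient libraries, and their part was not tested. Cacnb2, at 19.3, 23.0 and 23.7 CPM in susceptible mice, had a log2 fold change of -0.33 (95% interval -0.73 to 0.07, adjusted p = 0.333). Cacna2d1, at 9.11, 5.96 and 12.8 CPM, had the largest estimate, 0.56 (95% interval -0.03 to 1.16, adjusted p = 0.266), with the highest value in susceptible 10 and the lowest in resilient 3, the libraries with the excitatory marker sums given above. With 1 library left out the estimate ranged from 0.26 to 0.8. The lowest value came without susceptible 10, and without resilient 3 it was 0.36. For Cacnb4 the log2 fold change was 0.07 (95% interval -0.11 to 0.25), for Cacna2d2 0.09 (-0.39 to 0.57) and for Cacnb3 0.12 (-0.13 to 0.37). Cacna2d3, at 10.7, 11 and 16.1 CPM, and Cacna2d4, at 0.151, 0.663 and 1.34 CPM, had log2 fold changes of -0.14 and -0.45, the latter with an interval from -1.95 to 1.05.

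**Figure D4:**
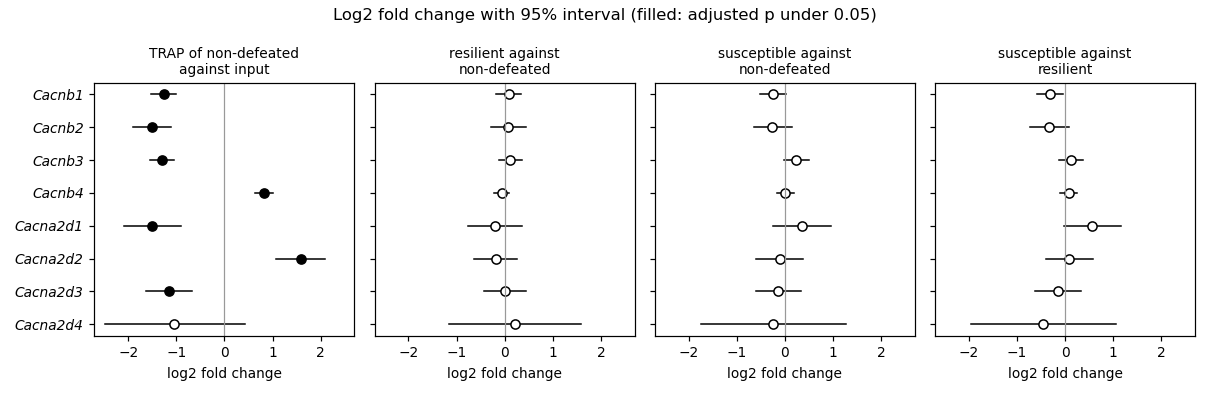
Log2 fold change (horizontal axis) of each gene in the 4 comparisons, with its 95% interval from the edgeR model and filled points for an adjusted p under 0.05. Cacnb4 and Cacna2d2 lie right of 0 and 5 genes left of it in TRAP against input, and in the 3 comparisons between stress groups no point is filled and only the interval of Cacnb1 in susceptible against resilient mice, -0.59 to -0.05, leaves out 0.

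The spread between replicates of a group was well above counting error for the abundant members. In non-defeated mice the coefficient of variation was 6.31% for Cacnb4, where counting alone would give 0.663%, and 14.9% for Cacna2d2, where it would give 2.5%. In these mice Cacna2d4 came closest to the limit of depth, with 24.3% against 12.5%. In the other groups its spread was far above counting error. It was 74.3% against 8.20% in input, 97.6% against 11.2% in resilient and 83.0% against 13.7% in susceptible libraries.

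The pore subunits that these proteins assist were measured alongside them. Of 10 pore subunit genes 9 were tested, and between TRAP of non-defeated mice and input 3 were higher and 2 lower (median log2 fold change 0.33, all genes -0.04), beside 27.4% and 27.6% of all genes tested, so neither count stands out from that background. Cacna1a, the P/Q-type pore subunit, rose from 9.14 ± 0.608 CPM (SD, n = 3) to 24.1 ± 2.31 (n = 4), a log2 fold change of 1.40 (adjusted p = 5.13e-07). Cacna1s, the L-type pore subunit of skeletal muscle, rose by 2.98 on the log2 scale (adjusted p = 0.000115) and the T-type Cacna1i by 0.77 (adjusted p = 0.0159). The T-type Cacna1h had a log2 fold change of -1.05 (adjusted p = 0.0336), and the R-type Cacna1e, named here after its values were seen, one of -0.82 (adjusted p = 0.0491). T-type channels work without a required beta or alpha2-delta subunit. Of 2 gamma subunit genes, only Cacng6 was tested, and its level fell (log2 fold change -2.0, adjusted p = 0.00332).

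Among 7 proteins that bind beta subunits or regulate channels through them, 1 was higher and 1 lower in TRAP than in input (median log2 fold change 0.13), no larger a part than the 27.4% and 27.6% of all genes. Gem, a small GTPase that inhibits calcium channels through the beta subunit, rose by 0.93 on the log2 scale (adjusted p = 0.0305), while the related Rem2 was lower (log2 fold change -0.99, adjusted p = 0.000817). Among 6 proteins that bind alpha2-delta subunits, 1 was higher and 1 lower (median 0.03), again no larger a part than of all genes. Both are thrombospondins, secreted proteins of which several bind Cacna2d1: Thbs2 rose by 1.58 on the log2 scale (adjusted p = 0.00111) and Thbs3 had a log2 fold change of -0.82 (adjusted p = 0.00274). In these 4 lists 0 genes were called in the 3 comparisons between stress groups. The smallest p of each list belonged to Cacna1g (log2 fold change 0.46), Cacng6 (0.99), Rims1 (-0.07) and Thbs4 (-0.95) in resilient against non-defeated mice, all with an adjusted p of 1.0. In susceptible against non-defeated mice it belonged to Cacna1b (0.61, adjusted p = 0.277), Cacng6 (0.61, adjusted p = 0.617), Rims1 (-0.19, adjusted p = 0.374) and Thbs3 (0.19, adjusted p = 0.708). In susceptible against resilient mice it was again Cacna1b, the N-type pore subunit, at 8.16 ± 1.10 CPM (SD, n = 3) against 5.18 ± 1.47 (n = 4, log2 fold change 0.66, adjusted p = 0.117), with Cacng6 (-0.38, adjusted p = 0.713), Rims1 (-0.12, adjusted p = 0.456) and Thbs4 (1.01, adjusted p = 0.305).

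The genes whose pattern over the 14 libraries was closest to that of each member were found from log2 CPM centred on each gene's mean, by the root mean square difference. For Cacnb4 these were H2afy2 (0.065) and Gm26938 (0.066), where the median gene differed by 0.520. For Cacnb1 they were Zfp189 (0.080) and Fmnl1 (0.087), for Cacnb2 Fam53b (0.094) and Zfp280d (0.152), and for Cacnb3 Serpina3n (0.109) and the unnamed ENSMUSG00000043498 (0.112). Among alpha2-delta subunits, Cacna2d2 was closest to Gm16585 (0.200) and Gm11628 (0.210), with a median of 0.796 over all genes. Cacna2d1 was closest to Scd1 (0.162) and Smo (0.196), and Cacna2d3 to Aldh1a1 (0.173) and Serpine2 (0.178). Cacna2d4 had no near neighbour, with Etnppl at 0.502 and Vav3 at 0.525 against a median of 1.065. All these values share the same libraries and include the difference between TRAP and input.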

How the data were processed

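TRAP RNA of hippocampal PV neurons and input RNA were analysed in 14 libraries. The authors made full-length cDNA with a kit that does not mark strand, trimmed the reads, aligned them to mm10 with STAR and deposited raw counts per gene, without normalization. Their processing notes also name HTSeq. The STAR version in these notes, 2.5.3a, is not the one in the study's methods, and the annotation and strand setting are not given in the sources used here. All count columns were mapped to samples by their names. Genes were named, measured for length and placed with release 21 of GENCODE (mouse), and overlaps were taken from its exons.

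The analysis used edgeR 4.0.16 under R 4.3.3 (TMM, default filter on low counts, quasi-likelihood test, 2-sided, Benjamini-Hochberg over 21298 genes), with all 14 libraries in 1 model, so that groups of 3 and 4 share an estimate of the spread. The study compared groups in pairs with DESeq2, which was run as an alternative (version 1.42.0). Other alternatives were the likelihood ratio test, RLE size factors, other filters, offsets for gene length and GC content, fewer groups in the model, a term for the sample number and leaving out each library. Removing the 4 libraries with the highest thalamic marker level was chosen only after seeing the data, as was the longest transcript as the length behind the order of levels and the ratio of both families. The exact permutation test used log2 CPM with a prior count of 2. The quasi-likelihood test, the likelihood ratio test and DESeq2 were run on simulated counts for the comparison of susceptible with resilient mice. Other steps were not tested on simulated data. Groups share no sample numbers, so nothing was paired.

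Named were all 8 members, from each list of related genes those with an adjusted p under 0.05 (at most 4 by smallest p) or otherwise the gene with the smallest p, and the 2 genes most like each member. Members and lists were chosen with earlier results of these data known. Counting error is contained in the spread between replicates that each test uses. Samples of a group came from separate mice.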

Additional observations from a re-analysis of the deposited data

Results flagged for a closer look

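In resilient mice, 1 of 4 libraries stood far from the other three for 3 of the values reported. Resilient 7 had 2.41 CPM of Cacna2d4, where the nearest other library had 0.570, and the gap was 0.926 of the range of the group. In the same library Cacna2d4 made up 5.94% of the alpha2-delta subunits, where the nearest other library had 1.24% (0.969 of the range). Resilient 7 also had the highest sum of thalamic neuron markers of all libraries, 724 CPM, and the part of these cells was not tested. In resilient 5, Cacnb3 made up 28.7% of the beta subunits, where the nearest other library had 24.4% (0.839 of the range). The limit was Dixon's 95% critical value, which chance passes in about 1 of 20 groups, and 32 groups of 4 were tested.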

How the results depend on the processing

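No paired analysis was possible because the groups shared no sample numbers. These numbers do not show whether an input library came from the same mouse as a TRAP library. The number of members called was 7 in TRAP against input and 0 in the 3 comparisons between stress groups in each run. TRAP against input was rerun in 9 other settings and without each of its 7 libraries in turn, and the stress groups in 11 other settings and without each of their 11 libraries. In TRAP against input each member kept its direction and its side of the threshold in those runs, although Cacna2d4 ranged from -1.35 to -0.23 with 1 library left out. Between stress groups no log2 fold change passed the threshold in any run, and 8 of 264 values changed sign in other settings. With a term for the sample number, Cacnb4 in susceptible against non-defeated mice was -0.01. Without the 4 libraries with the highest thalamic marker level, the log2 fold change of Cacna2d4 was -0.40 in resilient against non-defeated, 0.11 in susceptible against non-defeated and 0.51 in susceptible against resilient mice. In the same setting Cacnb2 was 0.02, Cacnb4 -0.05 and Cacna2d3 0.22 in susceptible against non-defeated mice, and Cacna2d2 -0.05 in susceptible against resilient mice. The cause of these changes was not tested.

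With 1 library left out, signs changed in 19 of 176 values. In resilient against non-defeated mice, Cacnb1 ranged from -0.01 to 0.18, Cacnb2 from -0.11 to 0.20, Cacna2d3 from -0.16 to 0.18 and Cacna2d4 from -0.75 to 0.46. In susceptible against non-defeated mice, Cacnb4 ranged from -0.03 to 0.05, Cacna2d2 from -0.29 to 0.03, Cacna2d3 from -0.35 to 0.03 and Cacna2d4 from -1.05 to 0.24. In susceptible against resilient mice, Cacna2d2 ranged from -0.09 to 0.23 and Cacna2d4 from -1.26 to 0.51. Cacnb1 there stayed between -0.42 and -0.23, and its unadjusted p was no longer under 0.05 without resilient 8.

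The longest transcript as gene length moved 20 of 32 shares by more than 1 SD between the libraries of the group. In input, non-defeated, resilient and susceptible mice, Cacnb2 became 11.3%, 6.46%, 6.68% and 5.39%, Cacnb3 41.0%, 27.0%, 28.7% and 31.6%, Cacnb4 15.7%, 44.9%, 42.3% and 44.8%, and Cacna2d3 66.0%, 43.8%, 47.6% and 41.9%. Cacnb1 became 32.0% and Cacna2d1 21.9% in input, and Cacna2d2 42.9% in non-defeated and 39.8% in resilient mice.

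The shares of all genes given as background depend on the model. In susceptible against resilient mice 403 genes were called, but 1099 with the likelihood ratio test, 991 with DESeq2, 126 without a filter, 182 with a GC offset, 1 with TRAP libraries only, 0 with both groups alone and 0 without the 4 libraries of highest thalamic marker level. In susceptible against non-defeated mice the 8 genes called became 189 and 113 with the likelihood ratio test and DESeq2, 16 with at least 10 counts in every library, 13 with RLE size factors, 5 with both groups alone, 3 with a length offset, and 0 with TRAP libraries only, with the sample-number term or without the 4 libraries of highest thalamic marker level. With 1 library of the compared groups left out, the 403 became 26, 196, 12 and 6 without resilient 3, 5, 7 and 8 and 7, 73 and 1058 without susceptible 2, 4 and 10, and the 8 became 6 without non-defeated 6, 1 without non-defeated 1 and 0 without non-defeated 9 or 11 or any susceptible library. Depth limits Cacna2d4 most, which had 11 to 289 counts in a library. Its spread between input, resilient or susceptible libraries was nevertheless far above counting error.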
